A study of Mus musculus with 20 samples.

Results

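The miR-466 and miR-297 miRNAs of the mouse were followed in the left ventricle after pressure overload. They were taken as every array probe named for a mouse miR-466 or miR-297, whatever the letter, arm or star, and 30 such probes were present. One of them, miR-466n-3p, carried negative spot flags on every array and was dropped, which left 29 of the 928 mouse miRNAs tested. A probe that named several miRNAs counted once, and 5 of the 29 did so.

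Hearts came from male C57BL/6J mice that were 8 weeks old at surgery, which was transverse aortic banding (TAB) or a sham operation. TAB narrows the aorta and loads the left ventricle. Left ventricles were collected at 5 times, which were day 3, day 5, day 7, day 14, and day 28 from the operation, and Cy5-labelled total RNA was put on 20 miRNA arrays, 2 for each surgery and day. The study's methods treat the 2 arrays as technical replicates, so their mean made 1 sample and the groups were 5 TAB samples and 5 sham samples, 1 for each day. No genotype beyond the strain and no drug is named, and neither the labels nor the methods say how many hearts stood behind an array. The TAB day 14 arrays bear a second label of 15 days.

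MiR-466 and miR-297 are large rodent families, and most of their hairpins lie in a repeat-rich cluster within an intron of Sfmbt2, a Polycomb-group gene that is imprinted in the mouse. A miRNA hairpin is cut into a 5p and a 3p strand, and a strand loaded into an Argonaute protein pairs with messenger RNAs through its seed, bases 2 to 8. Because the hairpins grew out of simple repeats, one arm is rich in UG and the other in CA, and sibling miRNAs differ by a few bases. The RefSeq annotation of GRCm38.p6 lists 34 hairpin genes of both families, and 28 of them lie inside Sfmbt2 on chromosome 2. The 6 outside it are Mir466k and Mir466q on chromosome 3, Mir297-1 on chromosome 7, Mir466j on chromosome 10, and Mir466i and Mir466f-4 on chromosome 13.

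Mature sequences were at hand in the RefSeq table for 4 of the 29 miRNAs, and they show both kinds of repeat. They are written 5′ to 3′ with the seed in capitals.
miR-466j: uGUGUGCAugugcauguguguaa
miR-466k: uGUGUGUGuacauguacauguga
miR-466q: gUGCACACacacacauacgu
miR-466i-3p: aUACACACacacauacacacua
On GRCm38.p6, all on the plus strand, miR-466j lies at chr10:60960802-60960824, miR-466k at chr3:85467396-85467418, miR-466q at chr3:28419988-28420007, and miR-466i-3p at chr13:17747552-17747573. MiR-466j and miR-466k hold a run of 3 UG repeats and are 73.9% and 69.6% U and G, whereas miR-466q and miR-466i-3p hold a run of 3 CA repeats and are 30% and 13.6% U and G. No seed is shared among the 4.

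Before scaling, TAB arrays were dimmer than sham arrays. The upper quartile of raw brightness spanned 180 to 288 in TAB and 303 to 444 in sham, while empty spots had medians of 65 to 73 in TAB and 68 to 74 in sham. Dimness and surgery therefore cannot be told apart in the raw values, and quantile normalization, which gives every array one distribution, set all levels below. The scaling weighed on the calls. Of all 928 miRNAs, 202 were lowered and 179 raised over the days after quantile normalization, against 110 and 593 after scaling to the 75th percentile and 500 and 27 with no scaling. Each scaling moved the median of all miRNAs, which was -0.02 on the log2 scale as reported here, 0.40 at the 75th percentile, and -0.25 unscaled. Relative to that median, the median difference of the 29 miRNAs was lower by 0.55, 0.80, and 0.80. The last values are equal because percentile scaling shifts all miRNAs of an array alike. All 6 heart muscle miRNAs of the marker list, miR-1a and miR-133a among them, were found on all 20 arrays, and 2 were raised, with a summed intensity of 52883 to 81812 in TAB and 54371 to 89649 in sham. Of 4 vessel miRNAs 1 was raised (9720 to 14785 in TAB and 8534 to 13956 in sham). Markers of other cells moved with surgery: 3 of 4 white blood cell miRNAs, both measured red blood cell miRNAs, and 2 of 3 fibroblast-associated miRNAs were raised in TAB, with summed intensities of 670 to 912 in TAB and 487 to 638 in sham, 304 to 503 in TAB and 200 to 269 in sham, and 2996 to 5152 in TAB and 1032 to 1363 in sham. On all 20 arrays, 2 of the 4 white and 1 of the 2 measured red blood cell miRNAs were found. Liver miR-122, brain miR-9, and epithelial miR-141 and miR-200c were raised or lowered in no case, but none was found on all 20 arrays. MiR-122 spanned 82 to 111 in TAB and 102 to 354 in sham, and miR-9 88 to 92 and 86 to 105. The epithelial sum spanned 156 to 175 in TAB and 161 to 169 in sham. The part of these markers in the results was not tested, and a loss of cells cannot be told apart from less of a miRNA per cell in tissue RNA.

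Over the 5 days, 19 of the 29 miRNAs were lowered in TAB hearts and 0 were raised (limma, day as a block, Benjamini-Hochberg adjusted p under 0.05). Among all 928 miRNAs, 21.8% were lowered and 19.3% raised. Their median difference, TAB minus sham, was -0.57 on the log2 scale, against -0.02 for all miRNAs. The point estimate was below 0 for each of the 29, but for 5 of them, miR-466d-3p, miR-466e-5p, miR-297a-5*, miR-466l-3p, and miR-466l-5p, it lay above 0 under scaling to the 75th percentile and in the processed table. In 14 of the 29 (48.3%), every TAB sample lay below every sham sample, and this held for 16.2% of all miRNAs. Leaving out day 3 or day 28 brought the 19 down to 11 and 12, when 12.4% and 13.8% of all miRNAs were lowered. By family, 15 of 24 miR-466 and 4 of 5 miR-297 miRNAs were lowered. Whether probes of these families capture each other's targets was not tested.

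**Figure D1:**
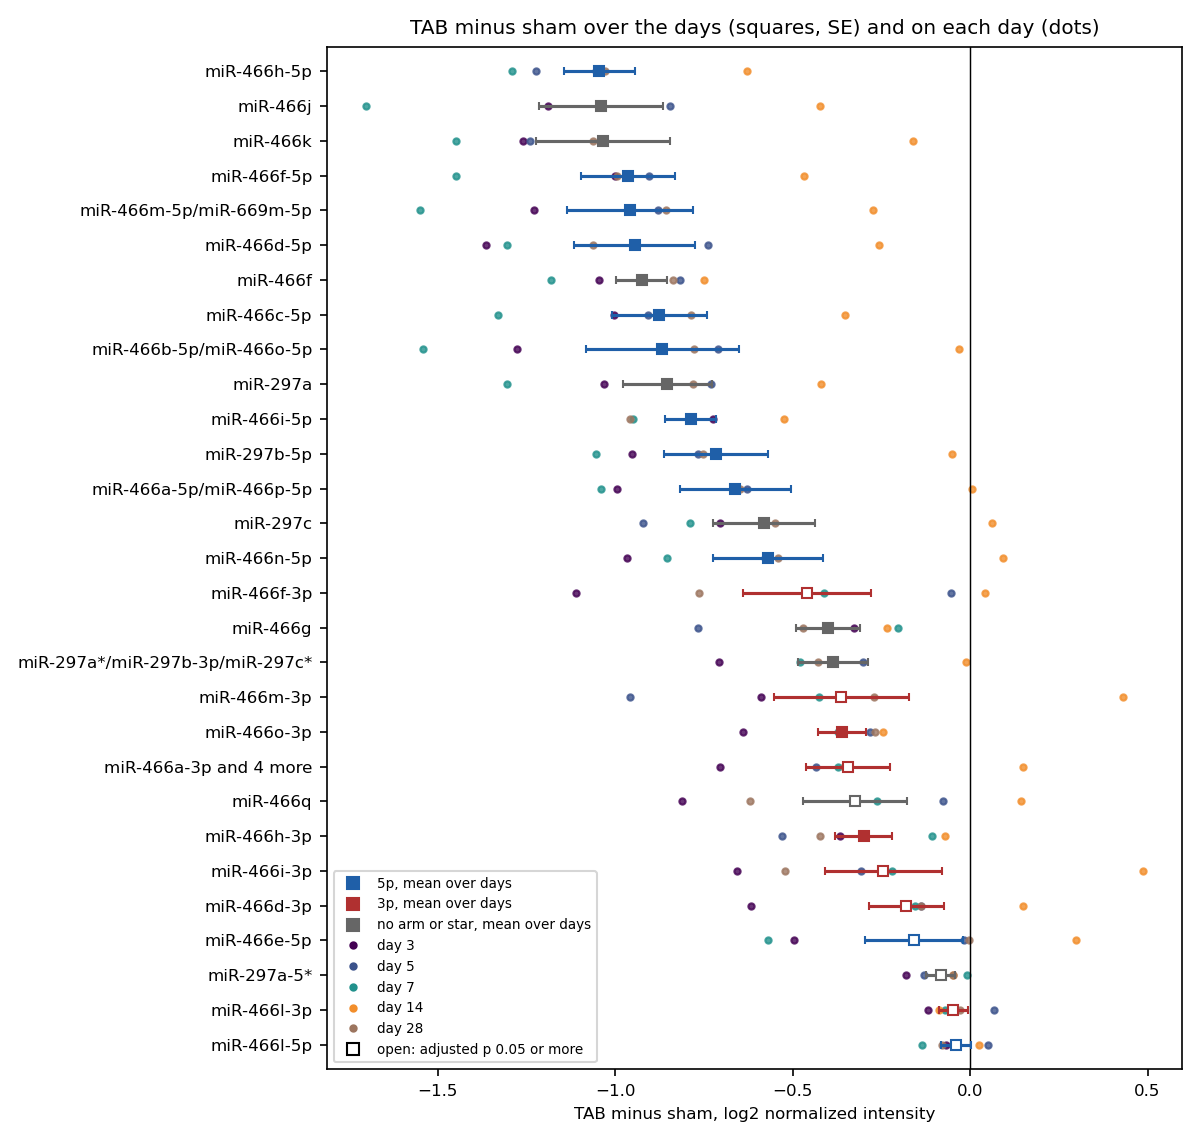
TAB minus sham difference in log2 normalized intensity (x axis) for each of the 29 miRNAs (y axis), as the mean over 5 days with its SE (squares) and on each day (dots). All squares lie left of 0, the 5p strands reach -1.04, and the day 14 dots lie to the right of most others.

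MiR-466h-5p, a product of the Sfmbt2 cluster, had the lowest difference. From day 3 to day 28, in the order of the days, its log2 intensities in TAB were 9.65, 9.30, 9.62, 9.58, and 9.31, and in sham they were 10.71, 10.52, 10.91, 10.21, and 10.34. No TAB sample reached a sham sample, and the difference of -1.04 ± 0.10 (SE, n = 5 days; adjusted p = 0.00201) left TAB hearts with 48.5% of the sham intensity. Raw intensities, before any scaling, were 603, 409, 524, 769, and 537 in TAB and 2404, 1818, 2418, 1533, and 1585 in sham.

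The UG-rich miR-466j and miR-466k, whose sequences are printed above, followed it closely. MiR-466j measured 9.56, 9.71, 9.66, 10.13, and 9.51 in TAB and 10.75, 10.56, 11.37, 10.55, and 10.55 in sham (difference -1.04 ± 0.17, SE; adjusted p = 0.00762). MiR-466k measured 7.40, 7.35, 7.51, 7.81, and 7.47 in TAB and 8.66, 8.59, 8.95, 7.97, and 8.53 in sham (-1.03 ± 0.19, SE; adjusted p = 0.00973). In both, the TAB and sham ranges stood apart, the highest TAB value fell on day 14, and the highest sham value fell on day 7. MiR-466h-5p, miR-466j, and miR-466k ranked 3, 4, and 5 from the lowest difference among the 928 miRNAs.

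The next lowest were miR-466f-5p, miR-466m-5p with miR-669m-5p on one probe, miR-466d-5p, miR-466f, and miR-466c-5p. MiR-466f-5p averaged 9.85 ± 0.22 in TAB and 10.81 ± 0.30 in sham (SD, n = 5 each; difference -0.96). MiR-466d-5p averaged 7.62 ± 0.23 in TAB and 8.56 ± 0.27 in sham, a difference of -0.94. None of the 5 overlapped between TAB and sham.

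MiR-466f had the smallest adjusted p of the 29. It was measured at 9.88, 9.89, 9.98, 10.02, and 9.79 in TAB, against 10.93, 10.71, 11.16, 10.77, and 10.63 in sham. Its difference of -0.93 ± 0.07 (SE, adjusted p = 0.00116) had the same sign on all 5 days. MiR-466c-5p differed by -0.88 and miR-466m-5p/miR-669m-5p by -0.96, with adjusted p = 0.00563 and 0.0101.

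MiR-466i-5p, whose hairpin lies on chromosome 13, was lowered as well. TAB samples gave 11.68, 11.97, 11.60, 11.68, and 11.42, and sham samples gave 12.41, 12.75, 12.55, 12.21, and 12.38. The groups did not overlap, and the difference was -0.79 ± 0.07 (SE, adjusted p = 0.00189). Among the miR-297 miRNAs, miR-297a averaged 8.56 ± 0.18 in TAB and 9.41 ± 0.27 in sham (SD, n = 5 each), a difference of -0.85 with adjusted p = 0.00507. MiR-297b-5p differed by -0.71 and miR-297c by -0.58, and both were lowered, but miR-297b-5p did not pass without day 3 (adjusted p = 0.0505), and miR-297c did not pass without day 3, 5, 7, or 28 (0.0647 to 0.0805). The probe shared by miR-297a*, miR-297b-3p, and miR-297c* was lowered by less, with 6.86 ± 0.09 in TAB and 7.25 ± 0.20 in sham (difference -0.39, adjusted p = 0.0263). That call was lost at the 75th percentile (-0.09, adjusted p = 0.434), in the processed table (-0.10, 0.381), without the first arrays (0.0521), and without day 3, 5, 7, or 28 (0.0602 to 0.0855).

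**Figure D2:**
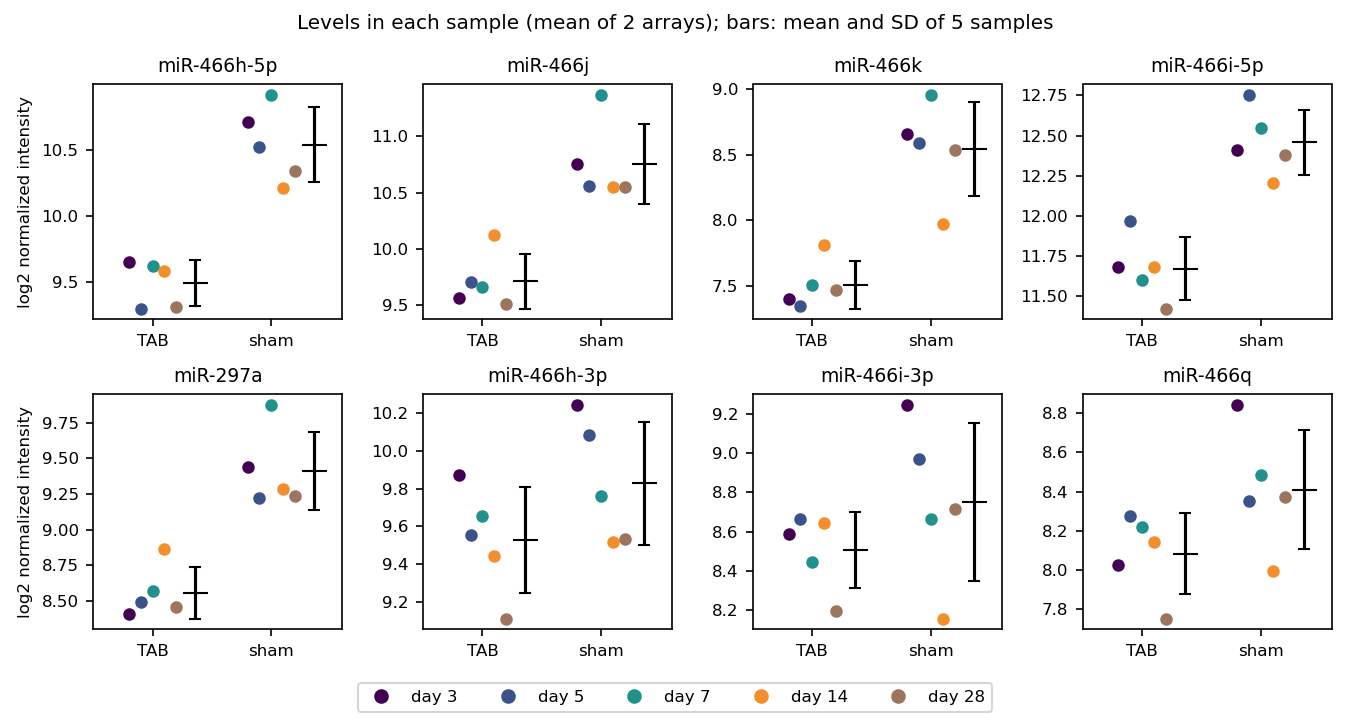
Log2 normalized intensity (y axis) of 8 miRNAs in the 5 TAB samples (left) and 5 sham samples (right) of each panel, coloured by day, with mean and SD. The groups stand apart for miR-466h-5p, miR-466j, miR-466k, miR-466i-5p, and miR-297a and overlap for miR-466h-3p, miR-466i-3p, and miR-466q.

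Some miRNAs sat near the background, where a fall can hardly be seen. The probe of miR-466a-5p and miR-466p-5p was found (at least 2 of its 3 spots without a negative flag) on 3 of 10 TAB arrays and 10 of 10 sham arrays, and it averaged 6.40 ± 0.16 in TAB and 7.06 ± 0.28 in sham (SD, n = 5 each; adjusted p = 0.0204), a call lost without day 3, 5, 7, or 28 (0.0576 to 0.0666). At the 75th percentile its difference was -0.27, against -0.66 as reported. MiR-466n-5p was found on 7 TAB arrays and 10 sham arrays, with a difference of -0.57 and adjusted p = 0.0305. It fell short at the 75th percentile (-0.26, adjusted p = 0.0589), in the processed table (-0.26, 0.0622), without the first arrays (0.0531), and without day 3, 5, 7, or 28 (0.0787 to 0.0982). The probe of miR-466b-5p and miR-466o-5p, found on all 20 arrays, averaged 7.09 ± 0.29 in TAB and 7.95 ± 0.36 in sham (difference -0.87, adjusted p = 0.0239) and did not pass without the second arrays (0.0537) or without day 3, 5, 7, or 28 (0.0581 to 0.0762). MiR-297a-5*, miR-466l-3p, and miR-466l-5p were found on no TAB array and on 1, 2, and 0 sham arrays, so their differences of -0.08, -0.05, and -0.04 say nothing of a change. The 24 others, the probe of miR-466b-5p and miR-466o-5p among them, were found on at least 4 of 10 TAB arrays and on all 10 sham arrays.

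The strands of the hairpins did not move alike. Of 12 miRNAs named 5p, 10 were lowered, with a median difference of -0.83, and of 8 named 3p, 2 were lowered, with a median of -0.32. These are 83.3% and 25% of the strands, beside 21.8% of all miRNAs, so the 3p share was near the background. Those called among the 3p strands were miR-466o-3p, at 6.58 ± 0.03 in TAB and 6.94 ± 0.16 in sham (SD, n = 5 each), and miR-466h-3p. MiR-466o-3p, found on 4 of 10 TAB arrays, differed by -0.36 as reported but by -0.03 at the 75th percentile (adjusted p = 0.826) and -0.03 in the processed table (0.799). The exceptions among the 5p strands were the barely detected miR-466l-5p and miR-466e-5p, which averaged 6.92 ± 0.12 in TAB and 7.08 ± 0.27 in sham (difference -0.16, adjusted p = 0.40). Without day 14, the day of the smallest median difference, 10 of 12 5p and 5 of 8 3p strands were lowered, beside 22.2% of all miRNAs. Without day 3 the counts were 6 and 1, beside 12.4%, and the 3p count was also 1 without day 5, without day 28, or from the second array of each sample alone.

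Among the 3p strands, miR-466h-3p measured 9.87, 9.55, 9.66, 9.44, and 9.11 in TAB and 10.24, 10.09, 9.76, 9.52, and 9.54 in sham. It was lower in TAB on all 5 days, yet the groups overlapped, and its difference was -0.30 ± 0.08 (SE, adjusted p = 0.0295). The call was lost with no day term (adjusted p = 0.184), with an intensity trend (0.107), without the first arrays (0.112), and without day 3, 5, or 28 (0.0784 to 0.0916). MiR-466i-3p, with its CA repeats, measured 8.59, 8.66, 8.45, 8.65, and 8.20 in TAB and 9.24, 8.97, 8.67, 8.16, and 8.72 in sham. On day 14 TAB lay above sham, on the other days below it, and the difference of -0.24 ± 0.17 did not pass (adjusted p = 0.28). The other CA-repeat sequence, miR-466q, gave 8.08 ± 0.21 in TAB and 8.41 ± 0.30 in sham (SD, n = 5 each; adjusted p = 0.13). Values that missed the threshold were also seen for miR-466f-3p (-0.46, adjusted p = 0.089), miR-466m-3p (-0.36, 0.178), miR-466d-3p (-0.18, 0.222), and the probe shared by the 3p strands of miR-466a, b, c, e, and p (-0.34, 0.0614). MiR-466g, which carries no arm in its name, was lowered by 0.40 on the log2 scale, at 8.10 ± 0.25 in TAB and 8.50 ± 0.31 in sham, and missed the threshold with no day term (adjusted p = 0.0629) and without day 3 or 28 (0.0511 and 0.0588). With no scaling, and with quantile normalization per surgery, all 8 3p strands were lowered, when 53.9% and 75.8% of all miRNAs were.

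Both strands of one hairpin, matched by name, were then set against each other within each sample, and the log2 ratio of 5p to 3p was compared between TAB and sham. This was done for every hairpin with both strands named singly on the array, 78 in all, with p-values adjusted over the 78, and 37.2% of them had a lower 5p difference. Of the 5 miR-466 hairpin names, 4 did. MiR-466f has several hairpin genes, Mir466f-1 to Mir466f-4, so its strands need not come from one hairpin. In miR-466d the 5p strand differed by 0.76 more than the 3p strand (ratio change -0.76 ± 0.11, SE; adjusted p = 0.00345), and in miR-466h the change was -0.75 ± 0.10 (adjusted p = 0.00291). Both changes were negative on all 5 days. The change of -0.54 in miR-466i (adjusted p = 0.0138) was -0.28 to -0.19 and did not pass under 4 other scalings (adjusted p 0.119 to 0.38). Among these, scaling to the 75th percentile and no scaling give the same ratio by construction. The change of -0.50 in miR-466f (adjusted p = 0.0391) did not pass without day 5, 7, 14, or 28 or without the second array (adjusted p 0.0683 to 0.101). In miR-466l, whose strands were barely detected, the change was 0.01 ± 0.06. The raw intensity of miR-466d-3p was 94 to 115 in TAB and 115 to 222 in sham, while empty spots had medians of 65 to 74. A fall of so dim a strand can hardly be seen, and the part of dimness in the miR-466d ratio was not tested. A ratio within a sample shows unequal change and not that a 3p strand stayed level.

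**Figure D3:**
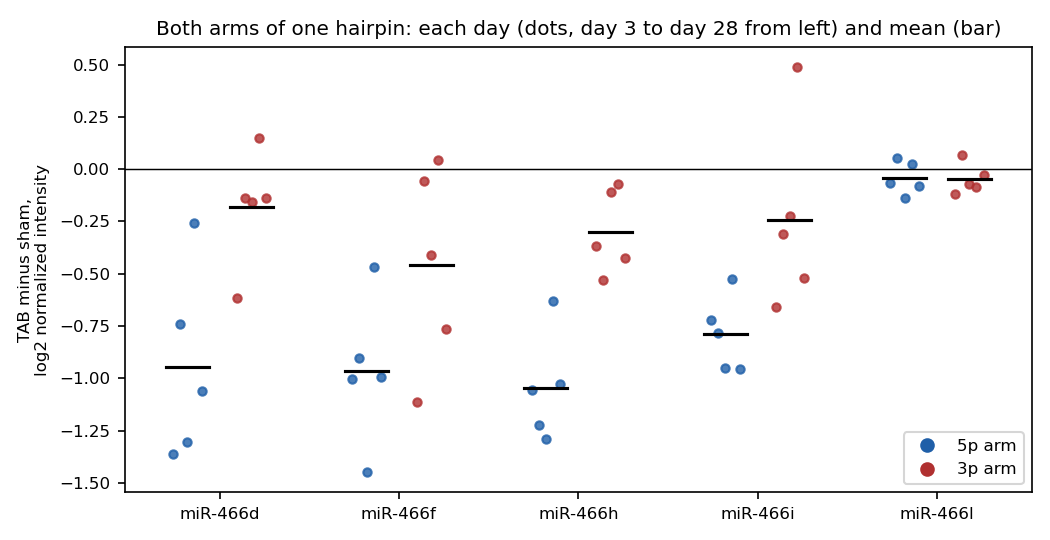
TAB minus sham difference in log2 normalized intensity (y axis) of the 5p strand (left in each pair) and 3p strand (right) of 5 miR-466 hairpin names, on each of 5 days (dots) and as their mean (bars). In miR-466d and miR-466h the 5p strand lay lower than the 3p strand on all 5 days.

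The 5 miRNAs whose only listed hairpin gene lies outside Sfmbt2 were miR-466j (-1.04), miR-466k (-1.03), miR-466i-5p (-0.79), miR-466q (-0.33), and miR-466i-3p (-0.24). The first 3 were lowered, and the CA-repeat miR-466q and miR-466i-3p did not pass after quantile normalization of all arrays together. MiR-466q passed at the 75th percentile (-0.32, adjusted p = 0.0261), in the processed table (0.0261), with no scaling (0.00675), and with quantile normalization per surgery (0.00148), and miR-466i-3p passed in the last 2 of these (0.016 and 0.00366). Without day 14 both passed. Repeats outside the families were examined next. A run of 3 UG repeats (UGUGUG, searched in the mature strand only) occurred in 7 tested miRNAs of other names, 2.53% of the 277 with a single sequence at hand, and a run of 3 CA repeats (CACACA) in 5, or 1.81%. The 4 with the lowest differences among the UG group and then the 2 lowest of the CA group are printed with the seed in capitals, to show that the repeats are not limited to miR-466 and miR-297.
miR-1187: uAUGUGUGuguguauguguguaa
miR-574-5p: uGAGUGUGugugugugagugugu
miR-467h: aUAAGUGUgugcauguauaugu
miR-3082-5p: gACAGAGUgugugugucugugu
miR-574-3p: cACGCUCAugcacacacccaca
miR-467f: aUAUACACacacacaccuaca
They lie on GRCm38.p6 at chr5:82798964-82798986 (miR-1187, minus strand), chr5:64970328-64970350 (miR-574-5p, plus), chr9:115381898-115381919 (miR-467h, plus), chr17:25831406-25831427 (miR-3082-5p, minus), chr5:64970364-64970385 (miR-574-3p, plus), and chr11:69635419-69635439 (miR-467f, minus).

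Of the 7 with UG repeats, 6 were lowered in TAB and 0 raised, with a median difference of -0.91. Of the 5 with CA repeats, 2 were lowered and 1 raised, with a median of -0.22, and of the 261 with neither run 66 were lowered and 30 raised, with a median of -0.04. MiR-1187 averaged 10.93 ± 0.27 in TAB and 11.93 ± 0.31 in sham (SD, n = 5 each; difference -0.99). MiR-574-5p averaged 11.47 ± 0.26 in TAB and 12.43 ± 0.26 in sham (-0.96). MiR-3082-5p, miR-467h, miR-669n, and miR-3097-5p differed by -0.91, -0.93, -0.74, and -0.69, and only miR-291a-3p, found on no array, was not lowered. The CA group held miR-574-3p (-0.44, lowered), miR-713 (-0.16, lowered), miR-467f (-0.28), miR-467g (-0.22), and miR-342-3p (0.29, raised). MiR-713 was found on only 2 TAB arrays, against 10 sham arrays. Under scaling to the 75th percentile the UG median was -0.80, with 6 lowered and 1 raised. The CA median was then 0.06, with 1 lowered and 1 raised, beside 11.9% and 63.9% of all miRNAs. A repeat run describes these sequences and was not tested as a cause.

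The miR-467 and miR-669 families, which share the Sfmbt2 cluster, gave smaller differences over the days. Some of their miRNAs lie elsewhere, such as miR-467h on chromosome 9 and miR-467f on chromosome 11. MiR-467h, miR-669n, miR-467f, and miR-467g were also counted above among the repeats. Of their 38 miRNAs, 13 (34.2%) were lowered and 1 was raised over the days, beside 21.8% and 19.3% of all miRNAs, with a median difference of -0.23. At the 75th percentile 12 were lowered and 11 raised, beside 11.9% and 63.9% of all, and the median was -0.0031. The difference between the families was not tested. Without day 14, 21 of the 38 were lowered, beside 22.2% of all. On days 3, 5, 7, 14, and 28 taken singly, 25, 16, 16, 3, and 21 of the 38 were lowered. The shares of all miRNAs were 17.8%, 20.5%, 16.2%, 14.3%, and 23.2%.

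Day by day, with the 2 arrays as the only error, so that each test compares RNA samples and not surgeries, 24 of the 29 miRNAs were lowered on day 3, when 17.8% of all miRNAs were. On day 5 the count was 20 (background 20.5%), on day 7 it was 19 (16.2%), and on day 28 it was 23 (23.2%). On day 14 only 5 were lowered, or 17.2% of the 29, close to the 14.3% of all miRNAs, and 1 was raised, against 12.3% of all. The median difference of the 29 was -0.81, -0.71, -0.79, -0.05, and -0.62 from day 3 to day 28. The lowest member was miR-466d-5p on day 3 (-1.36), miR-466k on day 5 (-1.24), miR-466j on day 7 (-1.70), miR-466f on day 14 (-0.75), and miR-466k on day 28 (-1.06). The one raised was miR-466i-3p on day 14 (0.49, adjusted p = 0.0358). Those lowered on day 14 were miR-466f, miR-466h-5p, miR-466i-5p, miR-297a, and miR-466o-3p. With quantile normalization per surgery, 29 were lowered on day 7 and 22 on day 14, when 63.3% and 65.7% of all miRNAs were. A fold rule of 2 SD, with no test, took 2 of the 29 and 2.48% of all as lowered on day 5.

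**Figure D4:**
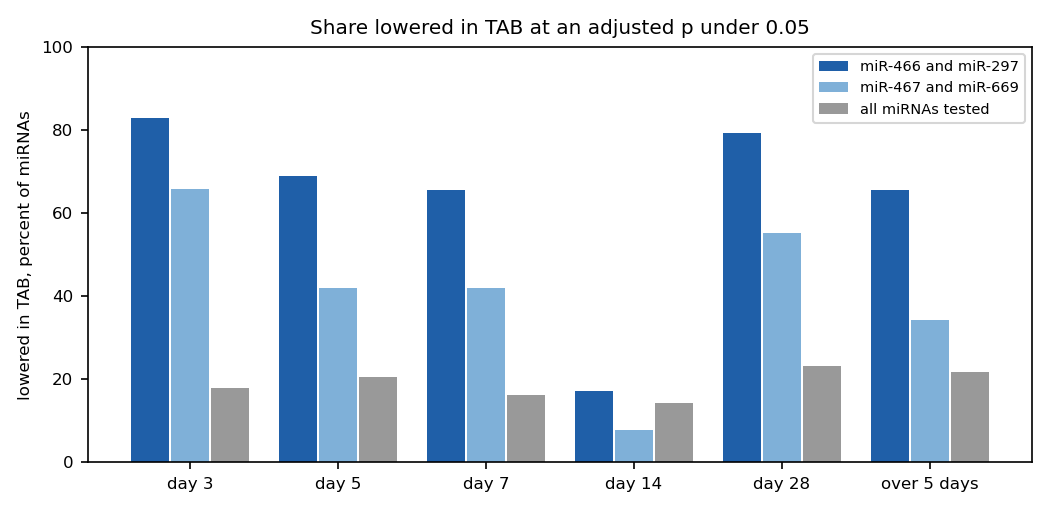
Percent of miRNAs lowered in TAB at an adjusted p under 0.05 (y axis) on each day and over the 5 days, for the 29 miR-466 and miR-297 miRNAs, the 38 miR-467 and miR-669 miRNAs, and all 928 miRNAs. The share of the 29 was 82.8% on day 3 and 17.2% on day 14.

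The smaller difference on day 14 was tested as such. Since day 14, and sham day 14 with it, had stood out in these same data, these tests describe that pattern and are no independent support. The TAB minus sham difference of day 14 exceeded the mean of the other 4 days for 17 of the 29, and for 10.1% of all miRNAs (limma, 20 arrays, adjusted p under 0.05). It did so most for miR-466k (by 1.09, adjusted p = 4.87e-05) and miR-466b-5p/miR-466o-5p (by 1.05, adjusted p = 0.00516). Each surgery was then read by itself. These contrasts set 1 RNA sample against 4 others with the spread between repeated arrays as the only error, so they do not measure the variation between samples. The sham day 14 sample was lower than the other sham days for 16 of the 29 and higher for 0, where 12.5% of all miRNAs were lower, and the median of the 29 was -0.38. The miR-467 and miR-669 families gave like values, with 25 of 38 lower in sham day 14 at a median of -0.37 and 21 of 38 with a higher difference on day 14. The lowest values there were those of miR-466i-3p (-0.74, adjusted p = 0.000885), miR-466k (-0.71, adjusted p = 0.000145), and miR-466a-3p with its 4 co-named strands (-0.64, adjusted p = 0.000145). The TAB day 14 sample was higher than the other TAB days for 4 of the 29, where 4.09% of all miRNAs were higher. The 4 were miR-466k, miR-466b-5p/miR-466o-5p, miR-297a, and miR-466a-5p/miR-466p-5p. That sample was lower for 0 of the 29, where 1.51% of all miRNAs were lower, and the median of the 29 was 0.17. With day 14 left out altogether, 23 of the 29 were lowered over the remaining days, all 19 first called among them. Then 22.2% of all miRNAs were lowered, and the median of the 29 was -0.73. Since day 14 was singled out by its small differences in these data, the higher count without it is no separate support. Leaving out any one of the other days gave 11 to 14 lowered, beside 12.4% to 14.2% of all miRNAs.

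Early and late days gave no further calls. The difference on days 14 and 28 minus that on days 3, 5, and 7 passed for 0 of the 928 miRNAs (limma; 58 of 928 and 3 of the 29 had an unadjusted p under 0.05). The 3 were miR-297c (0.56), miR-466m-3p (0.74), and miR-466c-5p (0.51), and the smallest adjusted p was 0.699. Within TAB, late minus early levels passed for 0.216% of all miRNAs and 0 of the 29, of which 2, miR-466h-3p (-0.42) and miR-466g (-0.38), had an unadjusted p under 0.05, as had 67 of all 928. Within sham the test passed for 0 of 928 and 0 of the 29, of which 11 had an unadjusted p under 0.05, all of them lower late, while 49 of all 928 were lower and 32 higher at that p. The summed normalized intensity of the 29 was 12508, 13198, 12628, 14188, and 11064 in TAB on days 3, 5, 7, 14, and 28, against 22819, 22176, 26211, 18085, and 19453 in sham, so that every TAB sum lay below every sham sum.

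The size of the falls depended on the scaling. After scaling to the 75th percentile, 19 of the 29 were lowered and 3 raised, the 3 being the barely detected miR-297a-5*, miR-466l-3p, and miR-466l-5p, and with no scaling 28 were lowered. The share of all miRNAs lowered was 11.9% at the 75th percentile, where 63.9% were raised, and 53.9% with no scaling. Of the 19 lowered at the 75th percentile, 16 were among the 19 as reported, with miR-466n-5p, miR-466o-3p, and miR-297a*/miR-297b-3p/miR-297c* lost and miR-466f-3p, miR-466m-3p, and miR-466q gained. The 5p strands kept the lower median: -0.83 against -0.32 for 3p as reported, -0.61 against -0.19 at the 75th percentile, and -1.26 against -0.84 with no scaling. Percentile scaling shifts all miRNAs of an array alike, so the gap with no scaling is the same and no separate check.

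**Figure D5:**
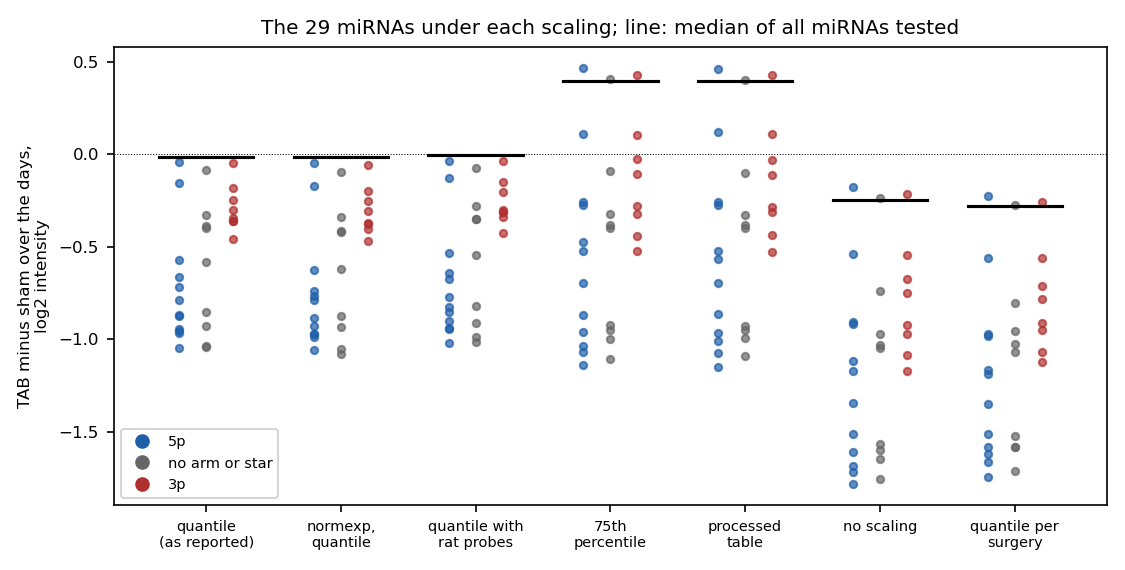
TAB minus sham difference over the days in log2 intensity (y axis) of the 29 miRNAs under 7 scalings of the arrays (x axis), by strand, with the median of all miRNAs tested as a line. That median was -0.02 as reported and 0.40 at the 75th percentile, and the 5p strands reached lower values than the 3p strands under each of the 7.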

How the data were processed

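The authors deposited the scanner intensity of each of 3 spots per probe with its flag, from GenePix 4.1, on the Mouse & Rat miRNA OneArray version 3 with names of miRBase 17, and a processed intensity table. Background had not been subtracted from the raw intensity. Here the median of the 3 spots was taken, probes flagged negative throughout were dropped, and log2 values were quantile normalized across the 20 arrays. The 2 arrays of a surgery and day were averaged, and limma 3.58.1 in R 4.3.3 was fitted to all 928 miRNAs with Benjamini-Hochberg adjustment, two-sided, at 0.05, with 4 residual degrees of freedom over the days and 10 for single days. Precision is limited by 5 samples a surgery; p-values over days measure the spread of the difference between days. The members, lists and tests were chosen with earlier results of these data known. The comparison of strands, the test of day 14 against the other days and the CA repeats were added after the data were seen. Named miRNAs were those with the highest sham levels, the lowest differences, values next to the threshold, the smallest differences, the extremes of each day, the smallest p in the time contrasts, and all probes with several names; miR-297a, miR-297b-5p, miR-466o-3p, and miR-466q were named after their values were seen. Rat probes bear no name in the file and were not analysed here. The scripts were tested on simulated data.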

Additional observations from a re-analysis of the deposited data

Results flagged for a closer look

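Among 25 named miRNAs, each with 5 TAB and 5 sham samples, 50 groups were searched for a sample far from the other 4 by Dixon's criterion, which chance meets in about 1 in 20 groups, and 4 samples met it. Sham day 7 stood highest for miR-466j (11.37, next 10.75), miR-466f-5p (11.34, next 10.76), and miR-466m-5p/miR-669m-5p (10.73, next 10.14). TAB day 14 stood highest for miR-466a-5p/miR-466p-5p (6.68, next 6.39).

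The TAB minus sham difference on day 14 was higher than the mean of the other 4 days, by a test of that contrast, for 14 of the 25 named miRNAs. Of all 928 miRNAs, 10.1% passed. Some of the 25 were named for a small p in time contrasts, sham day 14 among them, so the 14 is no independent count. Among 5p strands the excess was 0.52 for miR-466h-5p, 0.86 for miR-466m-5p/miR-669m-5p, 0.86 for miR-466d-5p, 1.05 for miR-466b-5p/miR-466o-5p, 0.83 for miR-466a-5p/miR-466p-5p, 0.83 for miR-466n-5p, and 0.57 for miR-466e-5p. MiR-466k had 1.09 and miR-297c 0.80. Among 3p and star strands it was 0.63 for miR-466f-3p, 0.62 for miR-466a-3p and its co-named strands, 0.91 for miR-466i-3p, 0.41 for miR-466d-3p, and 0.47 for miR-297a*/miR-297b-3p/miR-297c*. The error of this contrast is the spread between repeated arrays, and each surgery had 1 sample on day 14.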

How the results depend on the processing

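The number lowered over the days stayed within 1.5 times of 19 and the number raised at 0, the counts of strands and hairpins included, under quantile normalization with the rat probes, background correction by normexp, the mean of spots, no flag filter, the filter to miRNAs found on 10 arrays or more, an intensity trend, and no day term, except that the hairpins were not run with the trend. Quantile normalization per surgery follows the wording of the study's methods, which take the median at each rank within a condition. It lowered 75.8% of all miRNAs over the days, at a median of -0.28. Of the 29 it lowered 29 with a median of -1.07, 8 of them 3p strands. On day 7 it lowered 29, beside 63.3% of all, and on day 14 it lowered 22 and raised 0, beside 65.7% and 2.59%. With no scaling, where 53.9% of all were lowered, the median was -1.05 and 8 of 8 3p strands were lowered. That setting lowered 29 miRNAs on day 7, beside 59.1% of all. On day 14 it lowered 8 and raised 0, beside 24.6% and 4.31% of all. Scaling to the 75th percentile raised 3 over the days, beside 63.9% of all miRNAs. On day 14 it gave 3 lowered and 2 raised, beside 5.28% and 16.3% of all. The processed table raised 3 over the days and 5 on day 14, beside 63.8% and 43.9% of all. In these 2 settings the difference was positive for miR-466d-3p (0.10 at the 75th percentile and 0.11 in the table), miR-466e-5p (0.11 and 0.12), miR-297a-5* (0.41 and 0.40), miR-466l-3p (0.43 and 0.43), and miR-466l-5p (0.47 and 0.46). The cause was not tested, though both settings move the median of all miRNAs to 0.40. The fold rule of the methods, beyond 2 SD of all differences of a day, took 14, 2, 12, 1, and 4 as lowered on days 3, 5, 7, 14, and 28 and 0 as raised on day 14, beside 3.99%, 2.48%, 3.34%, 2.48%, and 1.51% of all miRNAs.

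Leaving out 1 day gave 11 to 23 lowered over the days, beside 12.4% to 22.2% of all miRNAs. Among the 5p strands 6 to 10 were lowered, and among the 3p strands 1 to 5. The array left out of each sample gave 16 to 18 lowered, with 1 to 2 among the 3p strands. The share of all miRNAs is not at hand for that setting. Single days could not be tested without an array. The 20 arrays as samples lowered 24, with 5 3p strands, and the same fit with the replicate number as a block also lowered 24, with 5 3p strands. Both fits count technical replicates as separate samples, which makes p-values smaller. The 24 is therefore no stronger result than the 19 as reported, and the share of all miRNAs is not at hand beside it. The correlation of replicate 1 minus replicate 2 between groups ran from -0.277 to 0.421, with a median of 0.0689. It was over 0.1 for 19 of 45 pairs of groups, so these values do not settle whether the numbers pair the arrays. The block changed the counts of single days by at most 1. Dim probes limit what can be seen, and 3 of the 29 were found on no TAB array.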
